A study of Mus musculus with 36 samples.

Results

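Wild-type (WT) bone marrow-derived macrophages given R837 for 3 h and then actinomycin D (ActD) for a further 2 h were compared with WT macrophages given R837 for 3 h and no ActD. The members are the 3 libraries of each group, 6 of the 36 libraries of the series, and the comparison covers all genes. Bone marrow of C57BL/6N mice was cultured in M-CSF, the growth factor that turns marrow progenitors into macrophages. R837 is imiquimod, a small-molecule agonist of the RNA sensor TLR7, and ActD blocks transcription by binding DNA. Per the labels' protocols, the replicates are macrophages of 3 individual mice. Replicate numbers below follow the order of the samples within each group, since the labels give none. The 30 other libraries are R837 for 7 h, the other ActD times (0.5, 1 and 4 h) in WT cells, and the same 6 conditions in N4bp1 knockout (KO) cells. N4bp1 encodes a ribonuclease-like protein that restrains NF-kB signalling and is cleaved by caspase-8. In all 36 libraries the macrophages had received R837, and unstimulated cells were not analysed here. The ActD group was harvested 2 h later than the group without ActD. The 2 extra hours in R837 and the presence of ActD therefore cannot be told apart, and the labels give no vehicle for the control.

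When transcription stops, each mRNA declines at the pace of its own decay. In macrophages, engagement of a Toll-like receptor induces a wave of short-lived mRNAs for cytokines, transcription factors and feedback inhibitors. Many carry AU-rich elements in the 3′ UTR, which proteins such as tristetraprolin (encoded by Zfp36) use to recruit the deadenylation and decapping machinery. Regnase-1 (encoded by Zc3h12a) instead cuts stem-loops in 3′ UTRs. Housekeeping mRNAs for ribosomes, mitochondria, the proteasome and lysosomes are generally long-lived. A library holds a fixed amount of RNA, so as short-lived mRNAs disappear the remaining ones take a larger share. No spike-in was used here, and every change below is relative to the average transcript. Fewer cells and less RNA per cell cannot be told apart in such bulk samples.

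Total counts per library were 20.7 to 29.0 M in the 3 ActD libraries and 25.2 to 29.4 M in the 3 libraries without ActD. The mean correlation of a library with the others of its group was 0.9966 to 0.9973. The TMM scaling factors, which correct for composition, were 0.972 to 0.979 after ActD and 1.073 to 1.076 without it, so they separated the groups completely. Macrophage markers were abundant throughout: the 16 markers summed to 33160 to 36820 CPM (counts scaled to a common library total) after ActD and 25790 to 30290 CPM without it. Markers of T and NK cells summed to 10.8 to 11.99 CPM after ActD against 12.4 to 15.1 CPM. Most of this was Cd4 (7.34 to 8.88 CPM after ActD, 7.14 to 9.84 CPM without it) and Cd8a (2.76 to 2.98 and 3.29 to 5.64 CPM). Cd3e and Trac were at 0 in all 3 ActD libraries. Neutrophil markers summed to 885 to 925 CPM after ActD and 706 to 813 CPM without it. The sum was mostly S100a9 (421 to 468 CPM after ActD, 306 to 367 CPM without it) and S100a8 (261 to 285 and 204 to 255 CPM). Of the 13 neutrophil markers 4 were higher and 3 lower, beside 23.4% and 26.5% over all genes, with a median log2 fold change of -0.14. Dendritic cell markers summed to 25.7 to 26.7 CPM after ActD and 41.8 to 47.9 CPM without it. Among them Ccr7 had 0.518 to 0.722 CPM after ActD and 11.2 to 11.7 CPM without it. Itgax overlapped between the groups, with 20.7 to 21.6 CPM after ActD and 19.3 to 25.1 CPM without it. B cell and plasma cell markers summed to 73.4 to 82.7 CPM after ActD and 94.0 to 104.1 CPM without it. Fibroblast markers overlapped between the groups at 15.3 to 21.1 CPM. The part of these sums in the results was not tested.

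Of 13748 genes tested, 6851 (49.8%) differed after 2 h of ActD at an adjusted p below 0.05 in edgeR's quasi-likelihood test with Benjamini-Hochberg adjustment. Of these, 3638 were lower (26.5% of genes tested) and 3213 were higher (23.4%). The 2 directions differed in size: 1753 genes (12.8%) were at least 2-fold lower and 768 (5.59%) at least 4-fold lower. In contrast, 151 genes (1.1%) were at least 2-fold higher and 15 (0.109%) at least 4-fold higher. The 768 genes that fell at least 4-fold held 0.259 to 0.283% of the counts after ActD and 2.6 to 2.72% without it. The median log2 fold change over all genes was 0.01, with 90% of genes between -2.15 and 0.68. How many genes counted as higher rested on the scaling. With library size alone, which shifted the median by -0.14 on the log2 scale, 1826 were higher and 4563 lower. With ribosomal protein and elongation factor genes as a stable reference, which shifted it by -0.36, 512 were higher and 6526 lower.

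**Figure D1:**
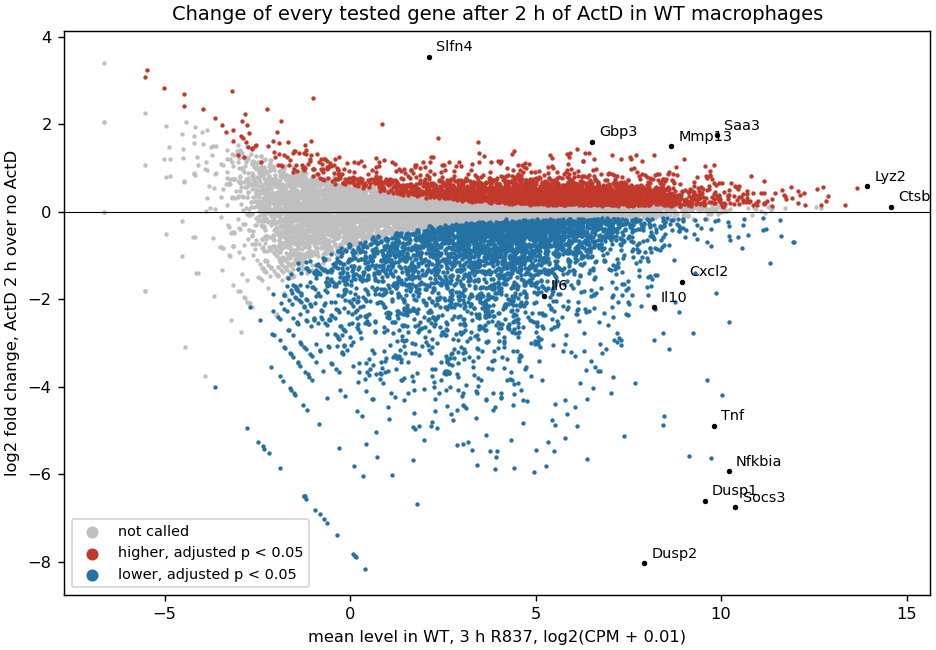
Log2 fold change after 2 h of ActD (ActD over no ActD, y axis) against the mean level in WT cells after 3 h of R837 (log2 of CPM + 0.01, x axis) for the 13748 genes tested. Falls reach far below -4 among abundant genes such as Dusp2, Socs3, Dusp1 and Nfkbia, whereas few abundant genes lie above 1.

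The steepest falls among genes of at least 20 CPM were in inhibitors that switch signalling off. Dusp2, a phosphatase that inactivates MAP kinases (GRCm38 chr2:127336159-127338376, + strand), had 1.03, 0.711 and 1.09 CPM after ActD, against 256, 244 and 230 CPM without it. It was 263-fold lower (log2 fold change -8.04 ± 0.13 SE, adjusted p = 9.87e-37). Socs3, an inhibitor of cytokine receptor signalling (chr11:117966079-117970047, - strand), had 14.9, 9.95 and 12.7 CPM after ActD, against 1394, 1380 and 1240 CPM. Dusp1, the MAP kinase phosphatase that limits p38 activity, had 7.96, 6.72 and 8.65 CPM after ActD, against 792, 752 and 720 CPM. Nfkbia, which encodes the NF-kB inhibitor IκBα, had 18.4, 19.9 and 19.5 CPM after ActD, against 1195, 1151 and 1196 CPM. In all 4 genes the groups lay more than an order of magnitude apart, and the log2 fold changes of the other 3 were -6.75 ± 0.12, -6.61 ± 0.10 and -5.94 ± 0.08 (SE).

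The other 11 of the 15 largest falls ranged from -5.95 for Socs1 to -5.18 for Btg2. They included 4 of the immediate early list, Junb, Ier5, Zfp36 and Btg2. Junb, an AP-1 subunit gene, had 12.3, 11.4 and 11.98 CPM after ActD, against 634, 522 and 544 CPM. Zfp36, the gene of tristetraprolin, had 18.1, 17.5 and 16.4 CPM after ActD, against 846, 921 and 798 CPM. The others were the cytokine signalling inhibitor gene Socs1, the transcription regulators Zbtb5, Prdm1 and Zfp217, the pseudokinase gene Trib1, the mTORC1 inhibitor gene Ddit4 and the prostaglandin E2 receptor gene Ptger4. No library of one group reached the range of the other in any of the 15, since the genes were ranked only where the groups did not overlap. The changes in KO cells, in separate libraries, were -7.86 for Dusp2, -6.70 for Socs3, -6.56 for Dusp1 and -5.78 for Nfkbia.

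**Figure D2:**
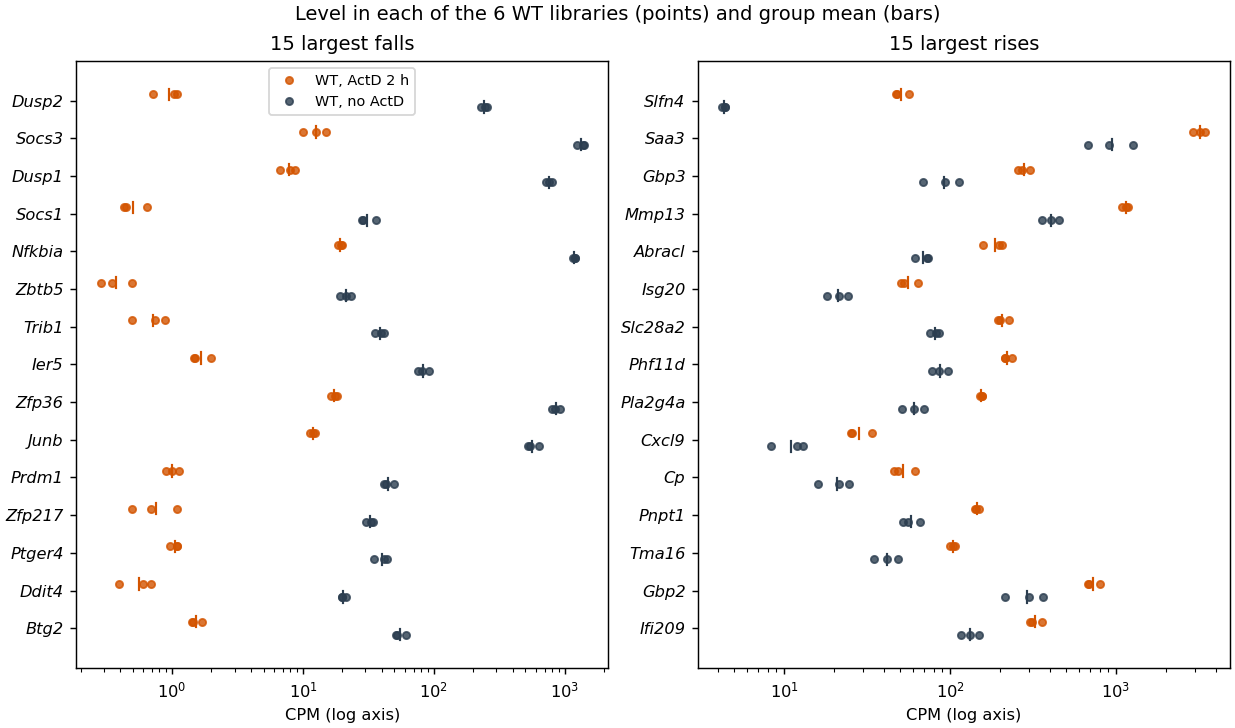
CPM (log axis) in each of the 3 ActD libraries (orange, upper row of each gene) and the 3 libraries without ActD (dark, lower row), with group means as bars, for the 15 largest falls (left) and 15 largest rises (right). The falls span 1 to 2 orders of magnitude or more, and apart from Slfn4 the rises are 3.36-fold or less.

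Classes of regulators fell as groups, read against the 26.5% of all genes that were lower. Of 22 immediate early genes tested, 20 were lower and none higher, with a median log2 fold change of -3.56 against 0.01 over all genes. SOCS and MAP kinase feedback genes gave 22 of 23 lower and none higher, with a median of -2.63. The KLF, ID, HES and SMAD-feedback transcription factors gave 20 of 22 lower and none higher, with a median of -2.16. Within that last list, Id1, an inhibitor of basic helix-loop-helix factors, had 1.43, 1.35 and 1.29 CPM after ActD, against 29.1, 24.6 and 27.7 CPM. Id3 fell by 2.88, Klf6 by 2.52 and the TGF-beta feedback gene Skil by 2.07 on the log2 scale. Among zinc-finger genes named Zfp, 228 of 287 were lower, 194 of them at least 2-fold, and 10 were higher, with a median of -1.78. Zfp281 was an example at 4.92, 4.02 and 4.13 CPM after ActD, against 86.6, 86.3 and 79.5 CPM. Zfp207 rose 1.34-fold; under the stable reference its log2 change was 0.06 and not called.

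NF-kB genes fell to very unequal extents. Of 24 subunits and feedback genes, 19 were lower and 3 higher, beside 26.5% and 23.4% over all genes, with a median of -0.62. Under the stable reference 21 were lower and 1 higher. Nfkbiz, which encodes the nuclear cofactor IκBζ, had 56.9, 57.0 and 59.2 CPM after ActD, against 1090, 1061 and 996 CPM. Tnfaip3, the gene of the deubiquitinase A20, had 55.4, 53.3 and 54.9 CPM after ActD, against 778, 824 and 768 CPM. Rel, the c-Rel subunit, fell 7.69-fold. Icam1, an adhesion molecule gene and NF-kB target, fell only 1.13-fold, with 2735, 2740 and 2705 CPM after ActD, against 3124, 3206 and 2954 CPM. Tnip3, an A20-binding inhibitor gene, rose 1.63-fold, with 3466, 3903 and 3913 CPM after ActD, against 2105, 2218 and 2583 CPM. Upstream, the Toll-like receptor pathway had 16 of 27 genes lower and 7 higher, and none of the 27 was higher under the stable reference. The adaptor genes Ticam1, Ticam2 and Traf6 fell 9.08-fold, 3.66-fold and 2.57-fold, and the transcription factor gene Irf5 fell 2.04-fold. The receptor gene Tlr2 fell 1.32-fold.

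Cytokine mRNAs changed in both directions. Of 23 cytokine genes, 15 were lower, 9 of them at least 2-fold, and 5 were higher, beside 26.5% and 23.4% over all genes. The median was -0.62 and the range was from -4.90 to 1.14. Under the stable reference 17 were lower and 2 higher. Tnf had 30.7, 31.2 and 28.2 CPM after ActD, against 894, 907 and 886 CPM, and was 29.8-fold lower (log2 fold change -4.90 ± 0.07 SE, adjusted p = 1.15e-38). Tnfsf9, the ligand of 4-1BB, fell 8.18-fold. Il10, the anti-inflammatory cytokine, had 73.3, 60.8 and 59.2 CPM after ActD, against 283, 292 and 299 CPM. Il6 had 11.2, 8.85 and 9.49 CPM after ActD, against 32.3, 37.5 and 41.6 CPM. These 2 fell 4.53-fold and 3.8-fold, and their groups did not overlap.

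Il1b, Il12b and Il1rn changed by less than 1.5-fold. Il1b had 980, 867 and 988 CPM after ActD, against 1057, 1158 and 1329 CPM, a fall of 1.25-fold with no overlap of the groups (adjusted p = 0.0011). Il12b, the p40 subunit of IL-12 and IL-23, had 332, 307 and 358 CPM after ActD, against 182, 239 and 313 CPM. Its rise of 1.36-fold (adjusted p = 0.00702) was called although the groups overlapped. The call ended without replicate 1 of the group without ActD (log2 fold change 0.27, adjusted p = 0.123), with library size alone (0.30) and with the stable reference (0.09). Csf3 was near the floor of expression at 1.57, 1.67 and 2.09 CPM after ActD, against 3.73, 2.19 and 3.55 CPM, and fell 1.79-fold (adjusted p = 0.000376). Il1rn, the IL-1 receptor antagonist gene, rose 1.29-fold; under the stable reference its log2 change was 0.01 and not called.

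Of 20 chemokine genes, 7 were lower and 9 higher, beside 26.5% and 23.4% over all genes, with a median of 0.07. Under the stable reference 9 were lower and 5 higher, with a median of -0.29. The neutrophil attractants Cxcl1 and Cxcl2 fell most among those named. Cxcl1 had 65.0, 55.7 and 67.5 CPM after ActD, against 285, 269 and 332 CPM, and was 4.71-fold lower. Cxcl2 had 165, 154 and 166 CPM after ActD, against 456, 460 and 554 CPM, and was 3.03-fold lower. Ccl3 and Ccl4, which attract monocytes and lymphocytes, fell 2.25-fold and 1.63-fold. Ccl5 rose 1.67-fold, with 414, 324 and 384 CPM after ActD, against 163, 228 and 279 CPM. Cxcl9, an interferon-inducible T cell attractant, rose 2.54-fold.

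Stretches of 3′ UTR with the pentamer AUUUA occurred both in mRNAs that fell steeply and in mRNAs that did not fall. The stretches below are windows of 30 bases, holding 1 to 5 AUUUA pentamers each (Mmp13's holds 1), from 3′ UTRs of GENCODE M21 transcripts on GRCm38, written 5′ to 3′ on the transcript's strand as DNA. They are shown because such stretches stand in mRNAs that changed very differently. Capitals mark the pentamer ATTTA, overlaps included, searched on the transcript's strand only.
Tnf (chr17:35199678-35199707, - strand; 29.8-fold lower): ttATTTAttATTTATTTAttATTTATTTAt
Zfp36 (chr7:28376958-28376987, - strand; 49.3-fold lower): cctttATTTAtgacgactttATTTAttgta
Ier3 (chr17:35822484-35822513, + strand; 35.0-fold lower): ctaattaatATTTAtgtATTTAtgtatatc
Dusp1 (chr17:26506157-26506186, - strand; 97.8-fold lower): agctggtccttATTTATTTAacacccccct
Cxcl1 (chr5:90892606-90892635, + strand; 4.71-fold lower): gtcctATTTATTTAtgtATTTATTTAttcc
Cxcl2 (chr5:90905327-90905356, + strand; 3.03-fold lower): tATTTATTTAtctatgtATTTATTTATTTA
Il1b (chr2:129364802-129364831, - strand; 1.25-fold lower): cttacctATTTATTTAtgtATTTAttgatt
Il12b (chr11:44413473-44413502, + strand; 1.36-fold higher): ATTTAagtaATTTAtgtATTTAttaATTTA
Mmp13 (chr9:7282128-7282157, + strand; 2.82-fold higher): aaagttgttATTTAtctcccagagagtatt

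The whole 3′ UTR held 8 pentamers in Tnf, 11 in Cxcl2, 7 in Cxcl1, 6 in both Il12b and Mmp13, 5 in Ier3, 4 in both Dusp1 and Il1b and 3 in Zfp36. The number of pentamers thus did not order these 9 genes by their change. The longer stretch TTATTTATT, written as DNA, occurred 5 times in Tnf, 4 in Cxcl2, 2 in both Dusp1 and Cxcl1 and 1 in Zfp36. It was absent from Il1b, Il12b and Mmp13, which did not fall steeply, but also from Ier3, which did. Cxcl2 held more of these stretches than Dusp1 and Zfp36, which fell further. Cxcl2 held more pentamers than Tnf in a 3′ UTR of similar length (734 and 764 bases) and kept 33.0% of its level, against 3.35% for Tnf. Socs1, Trib1 and Ddit4, which were 37.4-fold to 61.8-fold lower, held no pentamer in the 3′ UTR of the transcript used. A match is a description of letters and not a binding site.

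Over all genes the heptamer UAUUUAU, again read on the transcript's strand and with overlaps allowed, was present in a larger share of the 3′ UTRs of genes that fell more. It was present in 42.7% of genes at least 4-fold lower, 37.2% of those 2- to 4-fold lower and 34.0% of those less than 2-fold lower. The share was 24.0% among genes less than 2-fold higher and 28.5% over all genes tested. The 3′ UTRs of these classes also differed in length, with medians of 1392, 1546, 1423, 764 and 1012 bases in the same order. Among 3′ UTRs of 500 to 1500 bases the shares were 33.1%, 26.7%, 25.7% and 24.1%, against 24.1% over all genes tested. Per kb of 3′ UTR the heptamer occurred 0.402, 0.291, 0.284 and 0.293 times in these classes, against 0.293 over all genes tested, so its density exceeded that of all genes only in genes at least 4-fold lower among these 4 classes. The pentamer occurred 1.99, 1.76, 1.77 and 2.08 times per kb, against 1.84 over all genes tested. Exon structure also differed: genes at least 4-fold lower had a median of 4 exons and 2.33 exon junctions per kb of coding sequence. Those 2- to 4-fold lower had 3.84 junctions per kb, those less than 2-fold lower 5.72, and those less than 2-fold higher 7.84, against 6.56 over all genes tested. Ier5 and Junb had a single exon, and Socs1, Socs3, Zbtb5 and Zfp36 had 2. These features were known for 88.6 to 97.1% of the genes of the 4 classes. For genes at least 2-fold higher (66.9%) and genes not called (76.8%) the check was void, because too few had an annotated coding transcript.

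**Figure D3:**
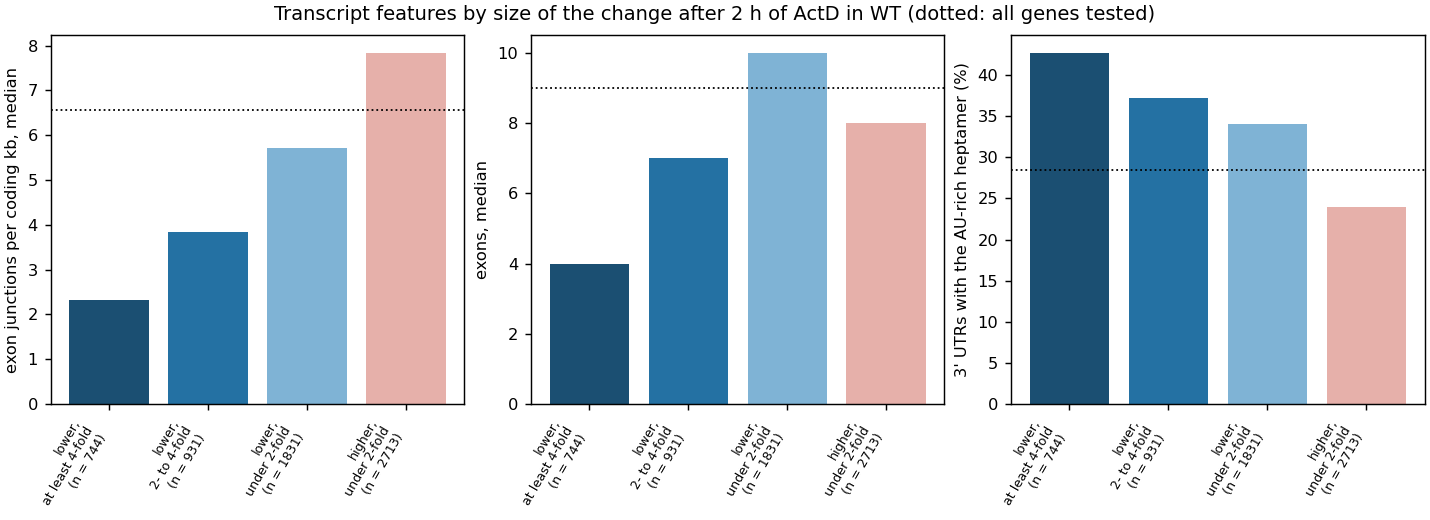
Median exon junctions per kb of coding sequence, median number of exons and percentage of 3′ UTRs with the AU-rich heptamer in 4 classes of genes by their change after 2 h of ActD, with the number of genes of known features below each bar and all genes tested as a dotted line. Junction density is lowest, 2.33 per kb, and the heptamer share highest, 42.7%, in genes at least 4-fold lower.

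Many, but not all, mRNAs of decay regulators fell. Of 19 regulators that bind AU-rich elements or stem-loops, 2 were higher, and none under the stable reference. The median was -1.01, and 16 were lower, 10 of them at least 2-fold. Besides Zfp36, these included Zc3h12a with 19.96, 19.8 and 23.0 CPM after ActD, against 157, 171 and 149 CPM. Arid5a, which protects Il6 mRNA from Regnase-1, fell 6.16-fold, and the related ribonuclease gene Zc3h12d fell 4.64-fold. Of 42 genes of deadenylation, decapping and the exosome, 18 were lower and 9 higher, beside 26.5% and 23.4% over all genes, and none was higher under the stable reference. Falls there were large for the deadenylase partners Tob2 (28.5-fold), Btg1 (8.79-fold) and Btg2 (36.3-fold) and for the decapping factors Dcp1a (6.47-fold) and Edc3 (2.72-fold). Of 14 tested mRNAs known as Regnase-1 targets, 9 were lower and 2 higher (11 and 0 under the stable reference). Among the lower ones were Nfkbiz at -4.18, the IκB-family gene Nfkbid at -3.54 and Il1b at -0.32 on the log2 scale.

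Some survival and stress genes also fell; the counts here are again read against 26.5% lower and 23.4% higher over all genes. Of 28 apoptosis and caspase-8 regulators, 11 were lower and 6 higher, with a median of -0.10. Under the stable reference 18 were lower and 2 higher. The anti-apoptotic gene Mcl1 had 263, 259 and 257 CPM after ActD, against 952, 889 and 962 CPM. Bcl2l1, which encodes Bcl-xL, fell 3.72-fold, and Cflar, which encodes the caspase-8 inhibitor c-FLIP, fell 1.49-fold. The pro-apoptotic genes Bcl2l11 (Bim) and Bbc3 (Puma) fell 3.12-fold and 8.44-fold. Of 20 p53 targets, 12 were lower and 1 higher: Plk2 fell 8.13-fold, Sesn1 3.36-fold, Mdm2 1.88-fold and Cdkn1a 1.48-fold. Under the stable reference 18 of the p53 targets were lower and none higher. The inducible Hsp70 genes Hspa1a and Hspa1b, whose near-identical sequences make their separate counts uncertain, fell 5.19-fold and 3.05-fold. The splicing kinase genes Clk1 and Clk2 fell 4.35-fold and 5.17-fold. In glycolysis, where 3 of 18 genes were lower and 5 higher, Hk2 fell 2.44-fold and Pfkfb3 1.83-fold. Under the stable reference 9 of these 18 genes were lower and none higher. In other lists, 11 of 31 cell cycle and DNA replication genes were lower and 3 higher (23 and 0 under the stable reference). Of 16 splicing factor and CLK genes, 7 were lower and 5 higher (10 and 2 under that reference). Of 20 NRF2 and iron genes, 5 were lower and 6 higher (12 and 1 under that reference). Of 24 cholesterol genes 7 were lower and 8 higher, and of 23 heat-shock and chaperone genes 5 were lower and 12 higher; under the stable reference these became 12 and 1, and 9 and 0.

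Of the 15 genes with the largest relative rises, Slfn4 stood apart. Slfn4 is a schlafen-family gene induced by interferon in mouse myeloid cells (chr11:83175186-83190216, + strand). It had 56.5, 47.5 and 48.0 CPM after ActD, against 4.43, 4.38 and 4.25 CPM, and was 11.6-fold higher (log2 fold change 3.54 ± 0.17 SE, adjusted p = 2.1e-20). In KO cells its change was 3.49. The next was the acute-phase gene Saa3, with 2913, 3202 and 3454 CPM after ActD, against 677, 903 and 1264 CPM. The guanylate-binding protein gene Gbp3 had 304, 258 and 271 CPM after ActD, against 68.3, 93.3 and 114 CPM. The collagenase gene Mmp13 had 1185, 1092 and 1152 CPM after ActD, against 359, 403 and 453 CPM. These 3 were 3.36-fold, 3.02-fold and 2.82-fold higher. Each varied among the libraries without ActD, being lowest in replicate 1 and highest in replicate 3. The same order held for other rises, among them Ccl5, Il12b, Cxcl9, Mx1, Psma6 and Lyz2, but not for Slfn4 or Ctsb.

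The other 11 rises were 2.45-fold to 2.71-fold. They comprised Abracl, the exonuclease gene Isg20, the nucleoside transporter gene Slc28a2, Phf11d, the phospholipase A2 gene Pla2g4a, Cxcl9, the ceruloplasmin gene Cp, the mitochondrial exoribonuclease gene Pnpt1, Tma16, Gbp2 and Ifi209. Several of these 15 are known interferon-inducible genes. In the type I interferon response list, 24 of 31 genes were higher, 7 of them at least 2-fold, and 2 were lower, read against 23.4% of all genes higher. The median was 0.62, and under the stable reference it was 0.27 with 14 higher and 5 lower. The list summed to 15290 to 18370 CPM after ActD and 10500 to 12110 CPM without it. Mx1, an antiviral GTPase gene, had 190, 162 and 168 CPM after ActD, against 62.9, 78.7 and 89.4 CPM. The antiviral genes Rsad2 and Cmpk2, which neighbour each other in the genome, each rose 1.58-fold; under the stable reference neither was called. The 2 that fell, Irf1 and Irf9, encode transcription factors. Irf1 had 14.9, 13.3 and 13.4 CPM after ActD, against 343, 352 and 359 CPM, and Irf9 fell 1.60-fold. In KO cells 21 of the 31 genes were higher and 4 lower, with a smaller median of 0.34. The test of the difference between genotypes called none of the 31.

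**Figure D4:**
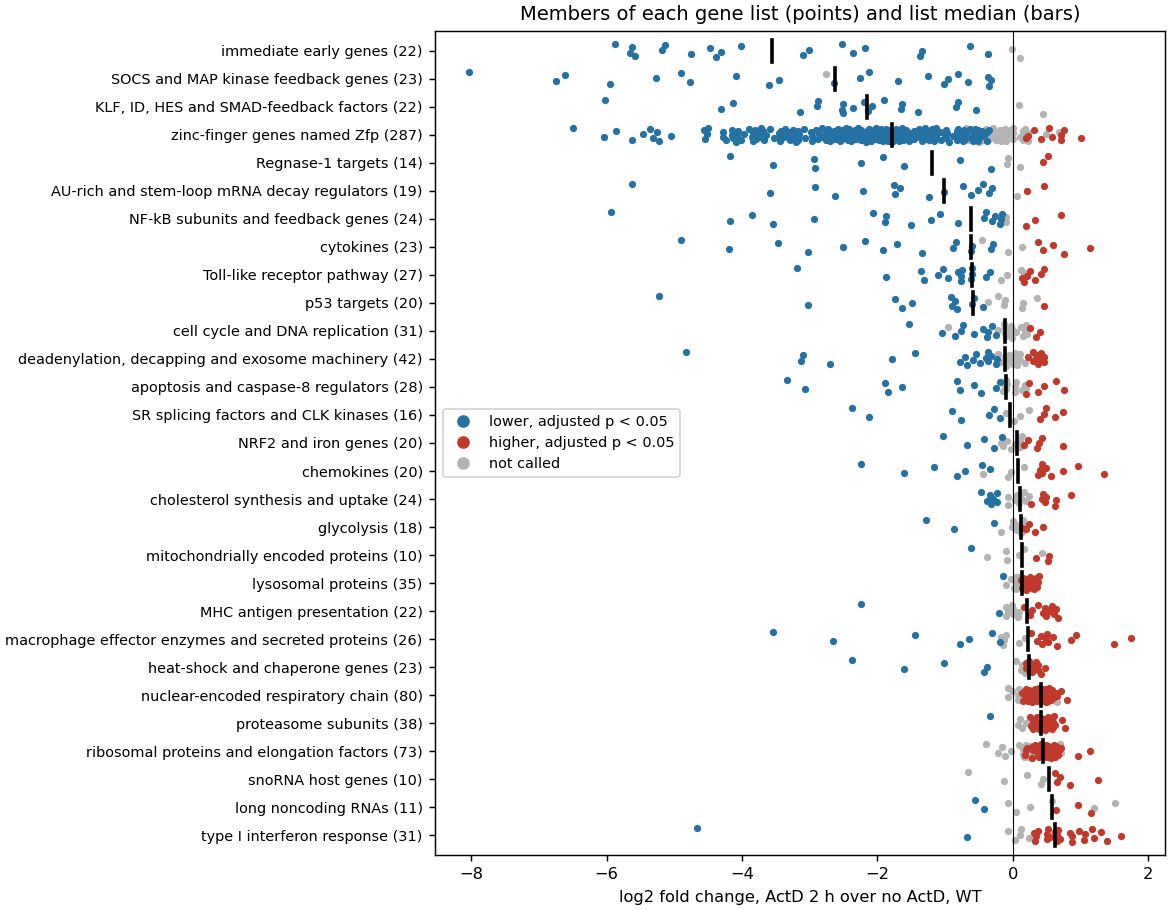
Log2 fold change after 2 h of ActD in WT cells (x axis) for each tested member (points, coloured by call) of 29 gene lists, with the number tested in brackets and the list median as a bar. Lists run from immediate early genes, with a median of -3.56, to the type I interferon response, with a median of 0.62.

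Several housekeeping lists held many small relative rises, read against the 23.4% of all genes that were higher. Of 80 nuclear-encoded respiratory chain genes, 65 were higher and none lower, with a median of 0.41; under the stable reference 12 were higher and 10 lower. Cox6c, a cytochrome oxidase subunit gene, rose 1.73-fold, and Ndufa5, of complex I, rose 1.64-fold. Of 38 proteasome genes, 33 were higher and 1 lower, with a median of 0.42; under the stable reference 11 were higher and 3 lower. Psma6 had 1236, 1348 and 1414 CPM after ActD, against 689, 755 and 902 CPM, and Psmd10 rose 1.65-fold. Of 73 ribosomal protein and elongation factor genes, 48 were higher and none lower, with a median of 0.44; Rpl22 rose 1.53-fold. That list is itself the stable reference. Of 10 snoRNA host genes tested, 5 were higher and none lower, including Snhg1 (2.40-fold) and Gas5 (1.80-fold). Both are spliced noncoding RNAs. The mitochondrially encoded mt-Co1 rose 1.45-fold, and 3 of 10 such genes were higher and 1 lower. Under the stable reference none was higher. Mitochondrially encoded genes held only 0.05 to 0.054% of counts after ActD and 0.043 to 0.057% without it. Their changes thus describe a small share of the reads. Malat1, a nuclear noncoding RNA, rose 2.23-fold, with 38.7, 28.0 and 38.8 CPM after ActD, against 11.5, 22.0 and 13.7 CPM. Of 11 long noncoding RNAs tested, 3 were higher and 2 lower, beside 23.4% and 26.5% over all genes. The 2 lower were Mir22hg and Tug1, which fell 1.47-fold and 1.34-fold.

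Lysosomal mRNAs changed by small amounts. Counts of the lists in this paragraph are read against 23.4% higher and 26.5% lower over all genes. Of 35 genes, 19 were higher and 1 lower with a median of 0.14, and under the stable reference none was higher and 10 were lower with a median of -0.22. The cathepsin genes Ctsb and Ctsd rose 1.08-fold and 1.12-fold, and both were lower under the stable reference, by 0.24 and 0.20 on the log2 scale. Ctsb had 26670, 27020 and 25500 CPM after ActD, against 24550, 24720 and 23790 CPM, the highest count level of all genes without ActD. Ctss rose 1.31-fold, with no call under the stable reference. Lyz2, the lysozyme of macrophages, had 20960, 24550 and 24990 CPM after ActD, against 13830, 15260 and 18090 CPM. Other highly expressed genes, Tmsb4x (thymosin beta-4), Spp1 (osteopontin) and the chemokine gene Ccl9, rose 1.46-fold, 1.43-fold and 1.48-fold. Among 26 macrophage effector genes, 13 were higher and 7 lower, with a median of 0.22. Under the stable reference 5 were higher and 12 lower, with a median of -0.13. Mmp12 and the prostaglandin E synthase gene Ptges rose 1.56-fold and 1.81-fold, while the secreted vasoactive factors Edn1 and Vegfa fell 11.6-fold and 6.30-fold. In antigen presentation, 12 of 22 genes were higher and 2 lower, with a median of 0.21. Under the stable reference 5 were higher and 10 lower, with a median of -0.15. The immunoproteasome genes Psmb8, Psmb9 and Psmb10 rose 1.47-fold to 1.52-fold. No MHC class II gene of the list was higher, and H2-Aa, H2-Ab1, H2-DMa, H2-DMb1 and Cd74 were not called. The 2 lower genes were the class II gene H2-Eb1 (1.16-fold) and the class II regulator gene Ciita (4.74-fold). Ciita averaged only 1.13 CPM without ActD.

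The 2 h point was set within the WT ActD course, whose comparisons share the 3 libraries without ActD or the 3 libraries at 2 h. Against the libraries without ActD, 992 genes (7.22%) differed at 0.5 h, 3023 (22.0%) at 1 h and 6851 at 2 h. Tnf averaged 896 ± 10.2, 60.4 ± 2.4, 38.1 ± 1.5, 30.0 ± 1.6 and 22.4 ± 2.2 CPM at 0, 0.5, 1, 2 and 4 h (SD, n = 3 each). Most of its fall therefore lay within the first 0.5 h, and the same was seen for Zfp36, Dusp1 and Ier3, which had 7.58%, 7.66% and 8.12% of their starting level at 0.5 h. Nfkbia fell later, at 1181 ± 25.7, 604 ± 6.7, 99.2 ± 7.8, 19.3 ± 0.8 and 11.6 ± 1.6 CPM. Nfkbiz fell later still, at 1049 ± 48.4, 810 ± 91.6, 491 ± 10.2, 57.7 ± 1.3 and 8.497 ± 0.70 CPM. Zc3h12a was at 115% of its starting level at 0.5 h, 69.5% at 1 h, 13.2% at 2 h and 2.41% at 4 h.

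A further group reached its lowest relative level by 1 h. Il10 averaged 292 ± 8.1, 81.2 ± 5.9, 56.4 ± 5.1, 64.5 ± 7.7 and 115 ± 13.1 CPM over the course. Cxcl2 averaged 490 ± 55.6, 103 ± 11.4, 104 ± 11.2, 162 ± 7.0 and 289 ± 38.6 CPM. From 2 to 4 h both rose, by 0.83 and 0.84 on the log2 scale, as did Ccl3 (0.80), Il6 (0.65) and Cxcl1 (0.39), all at adjusted p of 0.00386 or less; Cxcl1 was not called with library size alone (0.21) or the stable reference (0.12). Il6, Il10, Cxcl1 and Cxcl2 were at 26.5%, 22.1%, 21.3% and 33.0% of the starting level at 2 h and at 41.3%, 39.3%, 27.8% and 59.1% at 4 h. Slfn4 averaged 4.35 ± 0.09, 4.81 ± 1.37, 16.5 ± 4.4, 50.7 ± 5.1 and 55.6 ± 4.2 CPM, so its rise lay between 0.5 and 2 h. Saa3 was still rising from 2 to 4 h (log2 fold change 1.03). Across all genes, 5829 (42.4%) differed between 4 h and 2 h, 3560 lower (25.9%) and 2269 higher (16.5%).

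**Figure D5:**
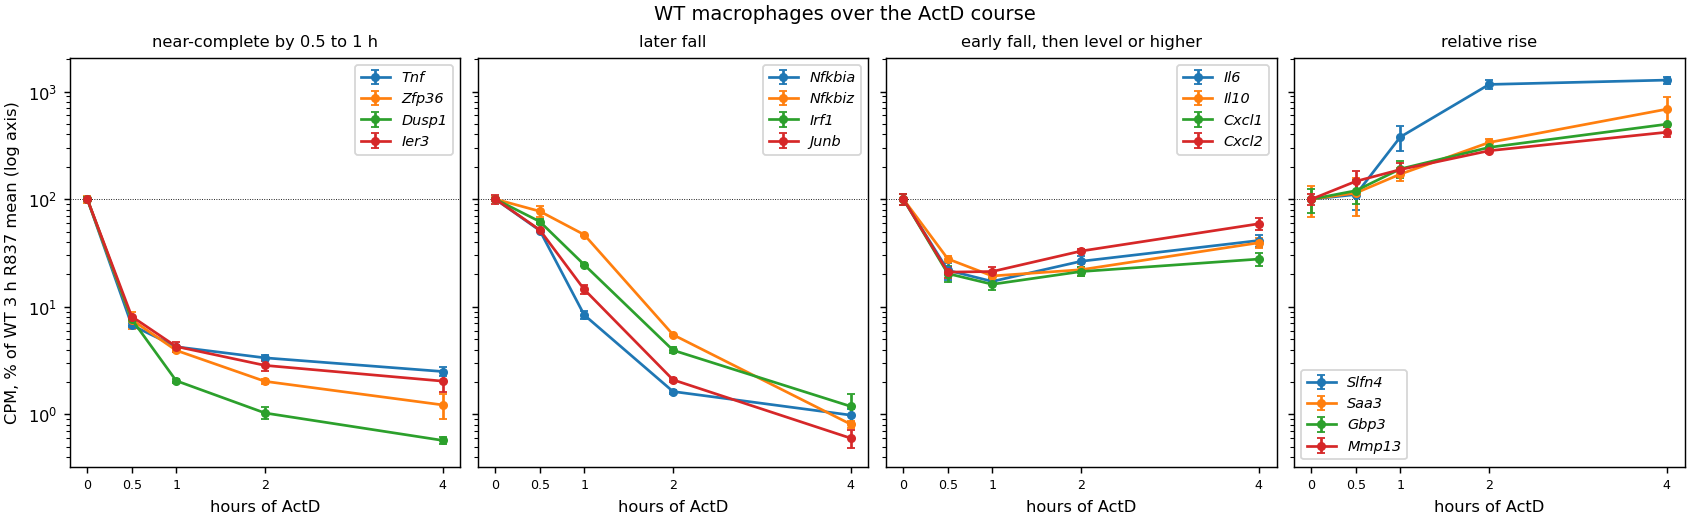
Mean CPM as a percentage of the WT mean without ActD (log axis) at 0, 0.5, 1, 2 and 4 h of ActD, with SD of 3 libraries as bars, for 16 genes in 4 patterns. Tnf is at 6.74% by 0.5 h, Nfkbiz at 5.50% only by 2 h, Cxcl2 at 33.0% at 2 h and 59.1% at 4 h, and Slfn4 at 1160% by 2 h.

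The same contrast in N4bp1 KO macrophages used 6 other libraries. N4bp1 itself had 88.1, 81.9 and 84.6 CPM in KO cells after ActD and 86.0, 85.0 and 81.3 CPM in KO cells without it. In WT cells it had 89.2, 76.8 and 74.7 CPM after ActD and 125, 147 and 128 CPM without it. Counts over the gene thus remained in the KO libraries, and the labels do not say which part was deleted. In KO cells 7049 genes (51.3%) differed after 2 h of ActD, 3773 lower (27.4%) and 3276 higher (23.8%). Of the 3638 genes lower in WT cells 87.8% were lower in KO cells too (84.7% of the KO set), and of the 3213 higher in WT cells 77.4% were also higher (75.9% of the KO set). At the 2-fold threshold, 87.3% of the 1753 genes at least 2-fold lower in WT cells were so in KO cells too (84.0% of the KO set), as were 43 of the 151 at least 2-fold higher, 28.5% (37.4% of the KO set). The log2 fold changes of KO and WT cells correlated across the 13748 genes at Pearson's r = 0.90 and Spearman's rho = 0.819, a description over genes, which are not replicates. The difference between genotypes, tested as an interaction, was called for 8 genes (0.0582%), 5 with a higher (0.0364%) and 3 with a lower change (0.0218%) in KO cells; 1047 genes had an unadjusted p below 0.05. Leaving out any 1 of the 12 libraries left 1 to 5 genes called, and the stable reference left none. The difference with the smallest p was in N4bp1, whose change was 0.01 in KO cells and -0.74 in WT cells, a difference of 0.75 ± 0.11 (SE, adjusted p = 0.000372). Tnf changed by -4.84 in KO cells and -4.90 in WT cells, and Cxcl2 by -1.29 in KO cells and -1.60 in WT cells, and neither difference was called.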

How the data were processed

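RNA was sequenced with an unstranded kit as 50-base single reads and, per the submitters' processing notes, aligned with GSNAP to GRCm38. The counting program, annotation and strand setting are not given in the sources used here, so reads of overlapping and antisense genes cannot be told apart. Each deposited file held, per the file headers, a count, an RPKM and a gene width for 52636 genes. Tests used the deposited counts; RPKM values of the authors were not tested. GENCODE M21 named 52489 of the genes. Counts were fitted with edgeR 4.0.16 (R 4.3.3): filterByExpr, TMM, 1 mean for each of 12 groups over all 36 libraries, quasi-likelihood tests and Benjamini-Hochberg adjustment over the 13748 genes kept (threshold 0.05). CPM are TMM-scaled, except marker and list sums and the single-marker ranges given with them, which use the plain library total. The values of Ccr7 therefore differ between its 2 mentions. The biological coefficient of variation was 7.48%. The script was tested on simulated data. DESeq2 1.42.0, other scalings and filters, and leaving out each library were alternatives. Libraries of different conditions may share mice, which the labels do not resolve and the fit did not use. Genes with near-identical copies can be undercounted, and their low counts were not read as low expression. Gene lists, members and named genes were chosen with earlier results of these data known. Named were 10 chosen genes, the 15 largest falls and rises of at least 20 CPM whose groups did not overlap, the 10 most abundant genes, 4 of smallest p and 2 most abundant per list, and up to 5 genotype differences each way.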

Additional observations from a re-analysis of the deposited data

Results flagged for a closer look

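The change after 2 h of ActD differed between genotypes, by the test of the difference itself, in 8 of 13748 genes; values below are the change in KO cells minus that in WT cells on the log2 scale. It was higher in KO cells for Ccr7 (1.47, adjusted p = 0.0346), Dgat2 (0.82, adjusted p = 0.0488), N4bp1 (0.75), Fpr1 (0.55, adjusted p = 0.0187) and H2-Aa (0.44, adjusted p = 0.012). It was lower in KO cells for Vcpip1 (-0.68, adjusted p = 0.012), Ifi203 (-0.61, adjusted p = 0.0488) and D1Ertd622e (-0.51, adjusted p = 0.0488).

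Ccr7, a chemokine receptor gene of mature dendritic cells named after its values were seen, had 3.34, 2.44 and 2.78 CPM in KO cells after ActD and 18.0, 17.6 and 19.6 CPM in KO cells without it. In WT cells it had 0.737, 0.533 and 0.547 CPM after ActD and 10.8, 10.9 and 10.4 CPM without it. Vcpip1, a deubiquitinase gene, had 14.5, 12.2 and 14.2 CPM in KO cells after ActD, against 158, 144 and 144 CPM without it. In WT cells Vcpip1 had 22.3, 18.8 and 23.4 CPM after ActD, against 149, 154 and 135 CPM without it. Ifi203, an interferon-inducible gene, rose 1.19-fold in KO cells and 1.82-fold in WT cells. Across 20 other settings N4bp1 stayed called in 19, H2-Aa in 14, Vcpip1 in 13, Fpr1 in 10, Ccr7 in 8, Dgat2 in 7, and Ifi203 and D1Ertd622e in 5 each. The exception for N4bp1 was the stable reference, where its adjusted p was 0.427.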

How the results depend on the processing

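No paired analysis was possible because the labels carry no replicate numbers that tie libraries across conditions. Of 114 genes named in the comparison of ActD 2 h with none, 105 kept their direction and side of the threshold in all settings tried. Ctsb reversed with library size alone (-0.02) and with the stable reference (-0.24), and Ctsd with the stable reference (-0.20). In WT cells, library size alone gave 1826 higher and 91 at least 2-fold higher; the stable reference gave 512 higher, 6526 lower and 37 at least 2-fold higher. In KO cells, library size alone gave 2145 higher and 70 at least 2-fold higher; the stable reference gave 293 higher, 7305 lower, 21 at least 2-fold higher and 2907 at least 2-fold lower. Genes at least 2-fold higher in KO cells were 73 with a filter of 1 CPM in 3 libraries and 70 at an adjusted p below 0.01. Between 4 h and 2 h in WT cells, genes higher were 556 with library size alone, 177 with the stable reference and 1466 at an adjusted p below 0.01, and the stable reference gave 2003 at least 2-fold lower.

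The 8 genotype differences moved most. Library size alone again gave 8 in all (1 lower), RLE normalization 8, and a filter of 1 CPM in 3 libraries 9. No filter gave 75 (15 higher, 60 lower), and the 12 libraries compared alone gave 28 (23 lower). DESeq2 gave 22 (9 higher, 13 lower), and an adjusted p below 0.01 only 1 (1 higher, 0 lower). The stable reference gave 0 in edgeR (0 higher, 0 lower), with 806 genes at an unadjusted p below 0.05. The cause was not tested. Leaving out each library in turn gave 1 to 5 called, 1 to 4 higher and 0 to 1 lower for the genotype difference. In WT cells it gave 6122 to 6617 called, 2760 to 3020 higher, 3362 to 3631 lower, 1706 to 1810 at least 2-fold lower and 131 to 196 at least 2-fold higher. In KO cells it gave 6178 to 6922 called.

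Depth limits the weakest genes: of the 151 genes at least 2-fold higher in WT cells, 47 reached 20 CPM after ActD, and Csf3 and Bbc3 lay near the floor.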
